A study of Mus musculus with 4 samples.

Results

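A set of 8 genes of cell death control was followed across 4 mouse liver arrays: the death receptor Fas, the caspases Casp8 and Casp12, the caspase-8 regulator Cflar, and the Bcl2 family genes Bid, Bcl2l11, Bcl2l1 and Mcl1. They were taken as every probe set whose only gene symbol in the platform annotation is one of these names, which gave 27 of 45037 probe sets and 8 of 18193 named genes. All 8 genes had at least 1 probe set that reached the array median, and 22 of the 27 probe sets did. The study compared male liver of wild-type and LASS2-/- mice on a standard chow (10% of calories from fat) or a high-fat diet (HFD, 60% of calories from fat), each diet begun at 3 weeks of age. Crossing genotype with diet gives 4 groups, and each was measured on 1 array. The sources used here do not give the age at collection, the strain background, how the allele was made or how many mice contributed to a sample. Lass2 is the former name of Cers2, a ceramide synthase.

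Apoptosis can start outside or inside the cell. At the surface, Fas recruits caspase-8, and the protein encoded by Cflar, an inactive relative of caspase-8, controls whether caspase-8 is activated. In hepatocytes this signal usually needs Bid, which caspase-8 cuts and which then acts on mitochondria. There, Bcl2l1 (Bcl-xL) and Mcl1 protect the outer membrane, and Bcl2l11 (Bim), a BH3-only protein like Bid, counters them. Casp12 belongs to the inflammatory group of caspases and has been linked to the endoplasmic reticulum. Transcript level says nothing about whether a caspase or BH3-only protein was active.

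The arrays had nearly equal trimmed mean signals (495.8 to 496.0 on the linear scale), and Alb, which encodes albumin and defines hepatocytes, had log2 signals of 15.02 to 15.27. Cers2, the targeted gene, differed by -0.15 log2 (LASS2-/- minus wild type) between the chow arrays and by 0.07 between the HFD arrays on its 1 probe set, so its signal was not lower on both arrays labelled LASS2-/-. Which part of the transcript this probe set reads was not determined, and genotype below is the label's. Values are log2 signals, and a level of 1 probe set is not set against that of another. The tests are mean effects of genotype and of diet in limma, fitted over 12493 genes with 1 residual degree of freedom per gene. Called means a Benjamini-Hochberg adjusted p below 0.05 over these genes, and the SE after ± is moderated, resting mostly on genes of like signal. A ratio between 2 arrays has no test.

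Casp12 rose with the LASS2-/- label and with the high-fat diet, while Casp8 and Cflar fell on the high-fat diet. With genotype 1 of 8 genes rose and 0 fell, against 0.56% and 0.352% of all genes (0.913% together). With diet 1 of 8 rose and 2 fell, against 6.26% and 5.04% of all genes (11.3% together). An unadjusted p under 0.05 was reached by 4 of 8 for genotype and 4 of 8 for diet, against 10.4% and 23.8% of all genes. With 8 genes chosen by name, these counts describe the genes and are no test of the group. The median log2 effect over the 8 genes was 0.23 for genotype and 0.01 for diet, beside 0.01 and 0.02 over all genes.

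**Figure D1:**
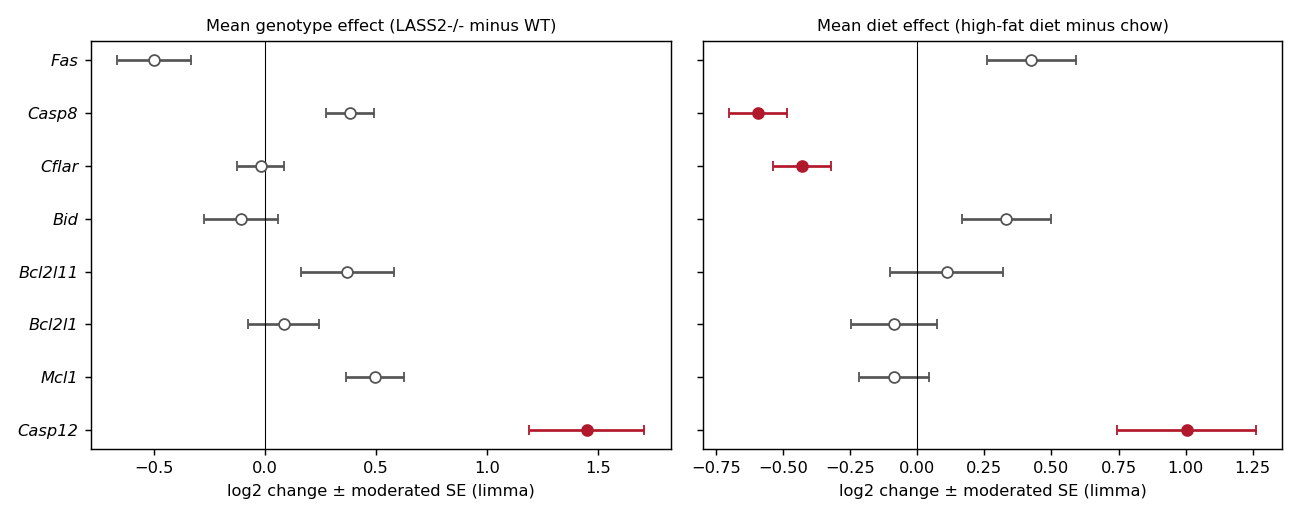
Mean effects of genotype (left) and diet (right) on the log2 scale for the 8 genes, 4 arrays in all. Points are the estimates, bars the moderated standard error, and filled red points the calls (adjusted p below 0.05): Casp12 for genotype at 1.45, and Casp8, Cflar and Casp12 for diet at -0.59, -0.43 and 1.003.

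The promoters of the 3 called genes are shown because these genes carry the changes. The sequences are from RefSeq on GRCm38.p6, run 5′ to 3′ on the gene's strand from 250 bases before to 50 after the annotated start, and all 8 genes matched the table. Capitals mark matches to the motifs searched on both strands.
Casp12, chr9:5345226-5345525, plus strand: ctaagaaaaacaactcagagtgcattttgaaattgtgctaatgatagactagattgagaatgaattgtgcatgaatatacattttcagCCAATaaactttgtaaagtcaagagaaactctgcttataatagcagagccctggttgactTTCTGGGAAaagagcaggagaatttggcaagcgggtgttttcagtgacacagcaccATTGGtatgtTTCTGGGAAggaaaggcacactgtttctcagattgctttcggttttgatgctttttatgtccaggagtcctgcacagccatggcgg
Casp8, chr1:58802252-58802551, plus strand: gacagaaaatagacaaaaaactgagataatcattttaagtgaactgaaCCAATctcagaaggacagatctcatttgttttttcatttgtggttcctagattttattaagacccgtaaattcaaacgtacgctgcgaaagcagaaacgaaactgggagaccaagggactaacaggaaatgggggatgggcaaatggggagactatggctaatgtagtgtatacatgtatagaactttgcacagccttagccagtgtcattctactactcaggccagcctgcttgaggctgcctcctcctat
Cflar, chr1:58711241-58711540, plus strand: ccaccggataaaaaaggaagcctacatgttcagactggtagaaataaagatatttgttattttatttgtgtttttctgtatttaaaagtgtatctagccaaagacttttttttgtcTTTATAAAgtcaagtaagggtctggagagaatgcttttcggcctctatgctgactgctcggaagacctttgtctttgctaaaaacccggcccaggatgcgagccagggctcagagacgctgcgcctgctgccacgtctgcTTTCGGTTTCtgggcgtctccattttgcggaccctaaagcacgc

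The Casp12 window held the STAT element TTCNNNGAA at 2 places, with the letters TTCTGGGAA at both, and the CCAAT box CCAAT at 2 places. A STAT element was found in 8.3% of 32851 promoter windows of the same length and a CCAAT box in 37.4%. The Fas window also held TTCTGGGAA, together with the E-box CACGTG (7.15% of windows) and the AP-1 element TGANTCA (7.81%). The Casp8 window held 1 CCAAT box. In the Cflar window the TATA box TATAAA matched on both strands in overlapping letters (13.6% of windows), and the interferon response element, written as 2 copies of GAAA with 2 free bases between them, matched on the minus strand (3.44%). The forkhead element GTAAACA was in 1 of 2 Bcl2l11 windows (3.65%). The PPAR element, written as 2 copies of AGGTCA with 1 free base between them (0.0396%), and the cAMP element TGACGTCA (1.79%) matched none of the 11 windows of the 8 genes. These matches are letters in a window and not sites of binding. The Casp12, Casp8 and Cflar windows had 3, 5 and 12 CpG dinucleotides, beside a median of 7 over all windows. Among the genes not called, Mcl1 had 33, Bid 22, Fas 14, the Bcl2l11 windows 27 and 38, and the Bcl2l1 windows 1, 14 and 22.

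The death receptor Fas was measured by 1 probe set. Its log2 signal was 9.02 in wild type on chow, 8.43 in LASS2-/- on chow, 9.35 in wild type on HFD and 8.94 in LASS2-/- on HFD. Fas was lower on the LASS2-/- array of each diet and higher on the HFD array of each genotype. By genotype the chow pair differed by -0.59 log2 and the HFD pair by -0.41, and the mean genotype effect of -0.50 ± 0.17 was not called (limma adjusted p = 0.251). The log2 diet ratio was 0.33 in wild type and 0.52 in LASS2-/-, and the mean diet effect of 0.43 ± 0.17 was not called (adjusted p = 0.126).

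Casp8, the initiator caspase below Fas, was measured by 1 probe set, which was brighter than 90.2% to 94.3% of all probe sets on the 4 arrays. Its log2 signal was 11.24 in wild type on chow, 11.64 in LASS2-/- on chow, 10.67 in wild type on HFD and 11.03 in LASS2-/- on HFD. Both HFD arrays lay below both chow arrays. The log2 diet ratio was -0.57 in wild type and -0.62 in LASS2-/-. Casp8 fell with diet by 0.59 ± 0.11 on the log2 scale (limma adjusted p = 0.00226). Within each diet the LASS2-/- array was the higher, by 0.41 on chow and 0.36 on HFD, and this mean genotype effect of 0.38 ± 0.11 was not called (adjusted p = 0.153). The ratios of the separate pairs of arrays thus differed by 0.05, the smallest gap among the 8 genes. Casp8 was called for diet in 10 of 11 alternative fits and not without the trend in moderation (adjusted p = 0.329), a fit that called 0 genes of all for diet and gave 1783 an unadjusted p under 0.05.

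Cflar, whose product (c-FLIP) sits beside caspase-8 in the receptor complex, was measured by 5 probe sets. On its brightest, the log2 signal was 11.64 in wild type on chow, 11.74 in LASS2-/- on chow, 11.33 in wild type on HFD and 11.19 in LASS2-/- on HFD. As for Casp8, both HFD arrays lay below both chow arrays. Cflar fell with diet by 0.43 ± 0.11 on the log2 scale (limma adjusted p = 0.0185), 1.24-fold in wild type and 1.46-fold in LASS2-/-. The genotype ratio was 0.10 on chow and -0.14 on HFD, and the mean genotype effect was -0.02 with a 95% interval of -0.25 to 0.21 on the log2 scale. Which transcript forms the probe sets of Cflar, Bcl2l1 and Bcl2l11 read was not determined. Of the 5 Cflar probe sets, 4 had lower mean signals on HFD, with mean diet effects from -0.74 to -0.11. The fifth, the dimmest, had 5.87, 7.20, 6.94 and 6.88 on the arrays in the same order and a mean diet effect of 0.38. In wild type on chow this probe set was under the array median, so its diet effect rests partly on an unusable level. When every probe set was fitted separately, 2 of the 5 were called for diet. The call was lost when the probe sets were averaged (-0.29, adjusted p = 0.353), with arrays shifted to equal medians (-0.40, adjusted p = 0.0741) and without trend (adjusted p = 0.365).

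Cflar and Casp8 are next to each other among the protein-coding genes of chromosome 1 on GRCm38.p6. The next coding gene on the far side of Cflar, Flacc1, had a mean diet effect of 2.05 that was not called (limma adjusted p = 0.321). The gene on the far side of Casp8 did not enter the fit.

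**Figure D2:**
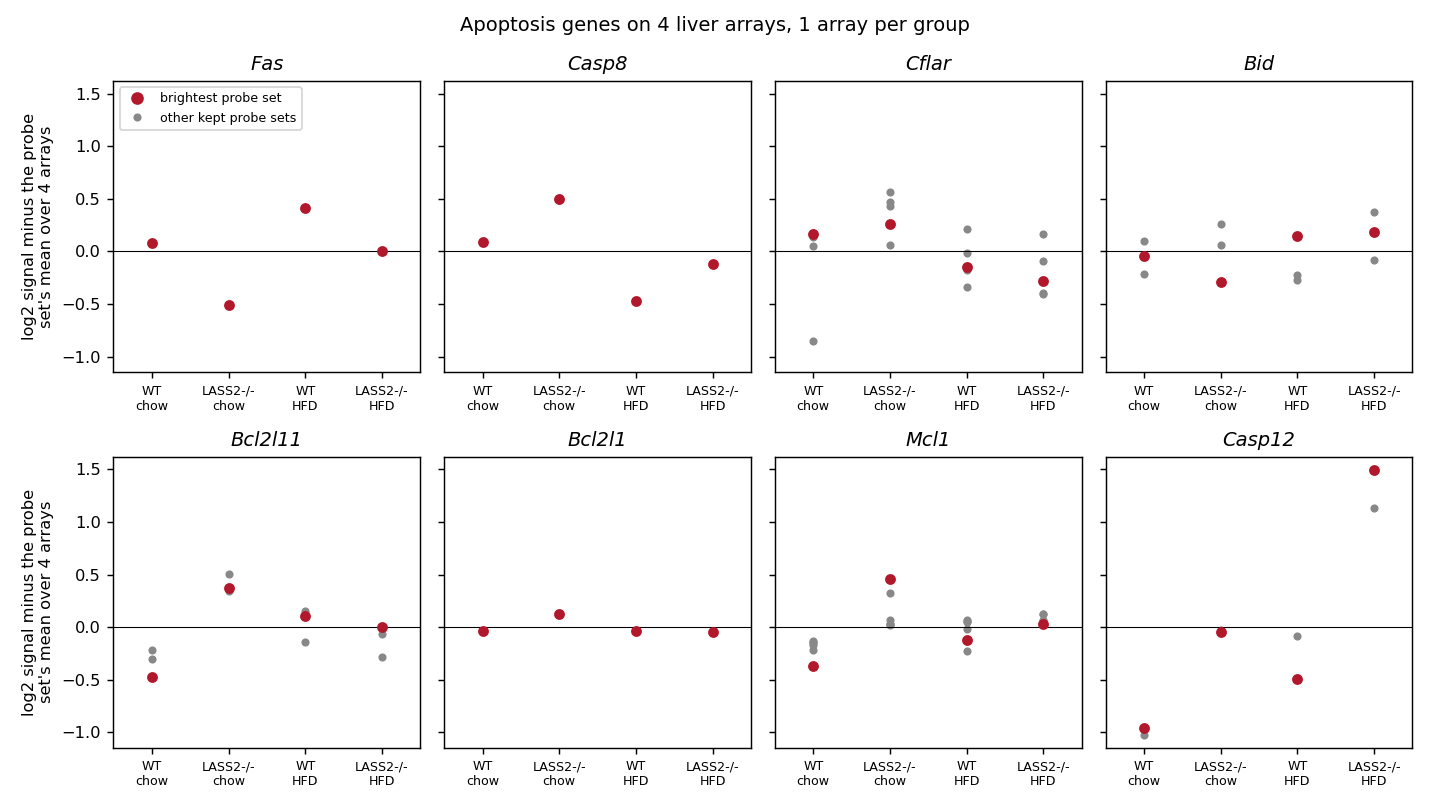
Log2 signal of each probe set minus its own mean over the 4 arrays (y axis) by group (x axis), 1 array per group. Red points are the brightest probe set of a gene and grey points its other probe sets that reached the array median. The HFD points of Casp8 lie below its chow points, and Casp12 is highest in LASS2-/- on HFD, 2.45 log2 above wild type on chow.

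Bid, the BH3-only protein cut by caspase-8, had log2 signals on its brightest probe set of 8.93 in wild type on chow, 8.69 in LASS2-/- on chow, 9.13 in wild type on HFD and 9.16 in LASS2-/- on HFD. Both HFD arrays lay above both chow arrays, by 0.19 in wild type and 0.47 in LASS2-/-. The mean diet effect of 0.33 ± 0.17 was not called (limma adjusted p = 0.251). Its 3 probe sets disagreed: the mean diet effects ran from -0.35 to 0.33, and the mean genotype effects from -0.11 on the brightest to 0.44. The dimmest of them reached the median on 2 arrays only.

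Bcl2l11, which encodes the BH3-only protein Bim, was lowest in wild type on chow on its brightest probe set. The log2 signal was 8.42 there, 9.26 in LASS2-/- on chow, 9.002 in wild type on HFD and 8.89 in LASS2-/- on HFD. On chow the LASS2-/- array was 1.80-fold higher, and on HFD the genotype ratio was -0.11 log2. The ratios thus differed by -0.95 (HFD minus chow), which cannot be tested with 1 array per group. A second probe set of like brightness gave 8.47, 9.27, 8.63 and 8.70, and the third gave 7.15, 7.71, 7.52 and 7.08, in the same order of groups. On all 3 probe sets that reached the median LASS2-/- on chow was the highest array. The mean genotype effect of 0.37 ± 0.21 (limma adjusted p = 0.613) and the mean diet effect of 0.11 ± 0.21 (adjusted p = 0.808) were not called. The other 2 probe sets stayed under the median on every array.

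Mcl1, a protector of the mitochondrial membrane with a short-lived product, was bright on all of its 6 probe sets. On the brightest the log2 signal was 11.81 in wild type on chow, 12.65 in LASS2-/- on chow, 12.07 in wild type on HFD and 12.22 in LASS2-/- on HFD. On this probe set LASS2-/- on chow was the highest array, 1.78-fold above wild type on chow, while the HFD arrays differed by 0.15 log2. The 6 probe sets did not share that order: 3 were highest in LASS2-/- on chow and 3 in LASS2-/- on HFD. The other 5 had log2 genotype ratios on chow of 0.16 to 0.48, below the 0.84 of the brightest, and the mean of the 6 gave 0.35. The mean genotype effect was 0.49 ± 0.13 and was not called (limma adjusted p = 0.124). All 6 probe sets had a positive mean genotype effect, from 0.09 to 0.49, and 0 of the 6 were called when fitted separately. The mean diet effect was -0.09 on the brightest probe set and ran from -0.17 to 0.19 over the 6. Mcl1 was called for genotype with the floor and filter at the 25th percentile of signal (adjusted p = 0.0452), where dimmer genes also entered.

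Bcl2l1, which encodes the other protector Bcl-xL, varied least of the 8 genes. Its log2 signal was 9.04 in wild type on chow, 9.22 in LASS2-/- on chow, 9.05 in wild type on HFD and 9.04 in LASS2-/- on HFD, a range of 0.17. The mean genotype effect was 0.08 with a 95% interval of -0.26 to 0.43, and the mean diet effect was -0.09 with an interval of -0.43 to 0.26. Changes of the sizes inside these intervals are not excluded. The other 3 probe sets stayed under the array median on every array and have no usable level.

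Casp12 had the widest range of the 8 genes, 2.45 log2. Its log2 signal was 7.09 in wild type on chow, 8.003 in LASS2-/- on chow, 7.56 in wild type on HFD and 9.54 in LASS2-/- on HFD. The LASS2-/- array was the higher on each diet and the HFD array the higher in each genotype. LASS2-/- was 1.89-fold above wild type on chow and 3.96-fold above it on HFD, and HFD was 1.38-fold above chow in wild type and 2.90-fold above it in LASS2-/-. Casp12 alone of the 8 genes was at least 2-fold higher in the genotype ratio on HFD, where 1.47% of all genes were, and in the diet ratio in LASS2-/-, where 3.11% were. On chow and in wild type 0 of 8 genes were 2-fold apart in either direction, against 1.58% and 3.37% of all genes. Casp12 rose by 1.45 ± 0.26 with genotype (limma adjusted p = 0.0184) and by 1.003 ± 0.26 with diet (adjusted p = 0.0225). The residual standard deviation of Casp12 itself was 0.53, and moderation toward genes of like signal brought it to 0.26.

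The second Casp12 probe set gave the same order of groups, with 6.40, 7.39, 7.34 and 8.55. Its log2 genotype ratios were 0.99 on chow and 1.22 on HFD, so the gap between the diets was 0.22 there against 1.07 on the brighter probe set. Fitted by probe set, both were called for diet, and for genotype the brighter was (adjusted p = 0.0415) and the other was not (adjusted p = 0.143). Both gene-level calls were lost with quantile normalization (adjusted p = 0.0961 for genotype and 0.0593 for diet), with equal medians (0.123 and 0.0571), with no filter on signal (0.0809 and 0.0685) and without trend (0.742 and 0.371). The log2 effects stayed between 1.28 and 1.45 for genotype and between 0.91 and 1.04 for diet over 11 alternatives. Alternatives that refitted the same values of the probe set could not move these effects.

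**Figure D3:**
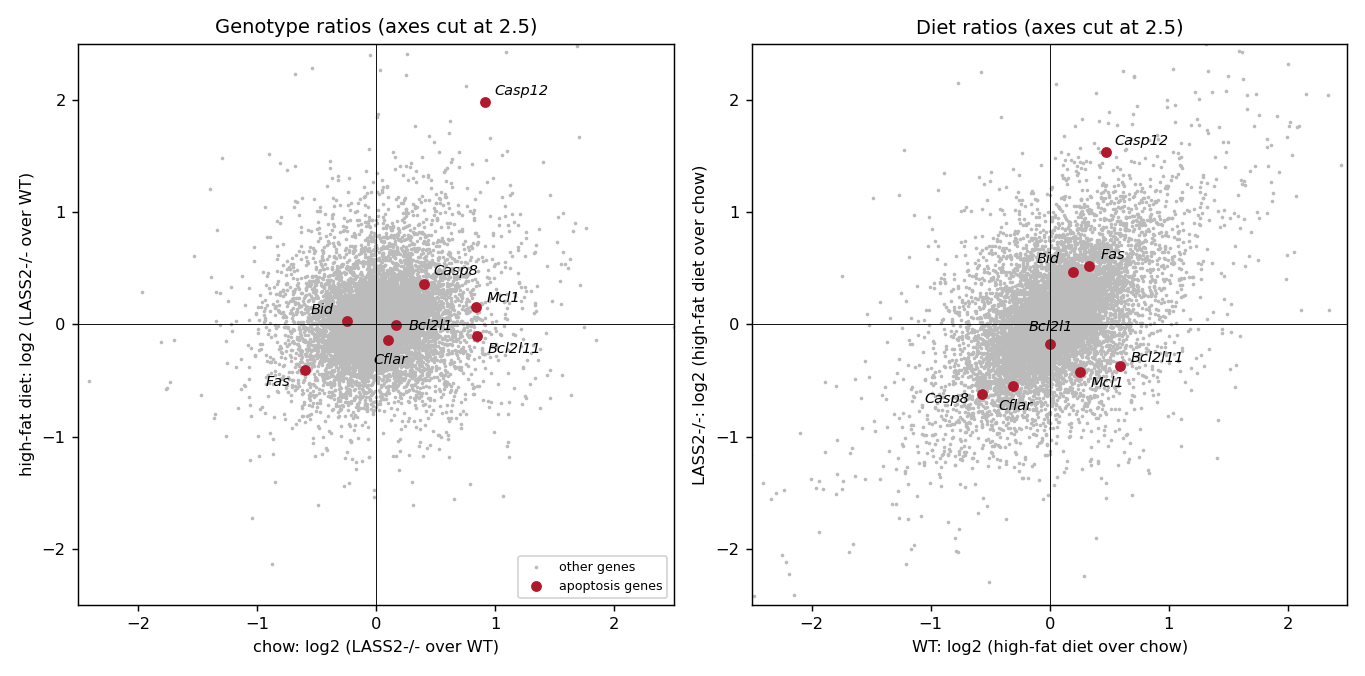
Log2 genotype ratio on chow (x) against HFD (y) on the left, and log2 diet ratio in wild type (x) against LASS2-/- (y) on the right, with each array floored at its median signal. Red points are the 8 genes and grey points the other genes, without those under the floor on both arrays of a ratio. Casp12 lies at 0.92 and 1.98 on the left and at 0.47 and 1.54 on the right.

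Markers of other liver cells were set beside these changes. In bulk liver, fewer cells of a type and less RNA per cell cannot be told apart. Of 18 Kupffer cell and macrophage markers that entered, 16 had a positive mean genotype effect and 12 a positive mean diet effect. Over all 12493 genes these counts were 6443 and 6521. For genotype 3 rose and 1 fell in limma, against 0.56% and 0.352% of all genes. For diet 2 rose and 1 fell, against 6.26% and 5.04%. An unadjusted p under 0.05 was reached by 15 of the 18 for genotype and 8 for diet, against 10.4% and 23.8% of all genes. The summed linear signal of the 18 markers was 32899 in wild type on chow, 39782 in LASS2-/- on chow, 32743 in wild type on HFD and 49426 in LASS2-/- on HFD. The highest array was the same as for Casp12. By diet in wild type the log2 ratios of the markers ran from -0.92 (Marco) to 0.85 (Ccr2), with a median of -0.04, and Casp12 had 0.47. Of the markers called, Cd163 alone fell. Marco, a scavenger receptor, rose with genotype by 2.48 ± 0.24, Mpeg1 by 0.83 ± 0.11 and Lyz2, a lysozyme, by 0.64 ± 0.13 (limma adjusted p = 0.000391, 0.00267 and 0.037). Cd163, the haemoglobin scavenger receptor, fell with genotype by 0.79 ± 0.16 and with diet by 0.67 ± 0.16 (limma adjusted p = 0.0328 and 0.0123). The genotype call of Cd163 held in 5 of 11 alternatives and that of Lyz2 in 4. With diet Lyz2 and Laptm5 rose by 0.50 and 0.49 (adjusted p = 0.0261 and 0.0355). None of these markers was at 0 on any array. Csf1r, the receptor for the macrophage growth factor CSF-1, ranged from 12.50 to 12.95, and Clec4f, a Kupffer cell lectin, from 10.60 to 10.91. Cd68 ranged from 8.15 to 9.18 and Ccr2 from 6.34 to 8.32. Csf1r, Cd68, Ccr2, Mpeg1, Lyz2 and C1qb ranked the 4 arrays from lowest to highest as Casp12 did. The other markers of this list, Clec4f among them, did not. Mlkl, Casp1 and Casp4, taken up below, had the order of Casp12 too. The mean genotype effect of Csf1r, 0.35 ± 0.09, was not called (limma adjusted p = 0.0987). Of 7 hepatocyte markers, 0 had a positive mean diet effect, beside 6521 of all 12493 genes, and the median was -0.13. In limma 0 of the 7 rose and 1 fell with diet, against 6.26% and 5.04% of all genes. Cps1, a urea cycle enzyme, was the 1 that fell, by 0.41 ± 0.07 (limma adjusted p = 0.00215). The summed linear signal of the 7 markers was 250328 in wild type on chow, 263102 in LASS2-/- on chow, 231483 in wild type on HFD and 218945 in LASS2-/- on HFD, lower on both HFD arrays as for Casp8 and Cflar. Of 9 stellate cell and fibroblast markers, 8 had a positive mean diet effect, beside 6521 of all 12493 genes. In limma 3 of the 9 rose and 1 fell with diet, against 6.26% and 5.04% of all genes. The collagen genes Col3a1 and Col1a2 rose by 1.44 ± 0.12 and 1.27 ± 0.15 (limma adjusted p = 3.7e-06 and 7.8e-05). Dcn rose by 0.27, a call held in 3 of 11 alternatives. Des fell by 2.28 ± 0.45 (adjusted p = 0.00456), but was under the array median on both HFD arrays, at 5.49 in wild type and 5.27 in LASS2-/-. Its floored log2 diet ratios of -1.33 in wild type and -1.60 in LASS2-/- are therefore bounds. The summed signal of the 9 markers was 16746, 16457, 22915 and 21221 on the arrays in the same order. In the other marker lists the called genes were Ccl5, a chemokine of lymphocytes, which rose with genotype by 1.42, and Cdh5, of endothelium, which rose with diet by 0.75. Each was 1 of 10 markers of its list that entered. The neutrophil, cholangiocyte and erythroid lists had 4, 3 and 1 that entered, with 0 called. Of all genes, 0.913% were called for genotype and 11.3% for diet. The part of any of these cells in the Casp12, Casp8 and Cflar values was not tested.

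A lower threshold of 1.5-fold brought in further genes, mostly on chow. Casp12, Bcl2l11 and Mcl1 were at least 1.5-fold higher on the LASS2-/- array, where 5.68% of all genes were, and Fas was at least 1.5-fold lower, where 3.35% were. For Mcl1 this held on its brightest probe set and on none of the other 5. On HFD, Casp12 alone was at least 1.5-fold higher, where 5.73% of all genes were, and 0 of 8 were lower, where 3.32% were. By diet, Bcl2l11 was at least 1.5-fold higher on HFD in wild type (7.71% of all genes) on its brightest probe set alone, and in LASS2-/- Casp12 was higher (10.1%) and Casp8 lower (7.2%). The chow arrays' genotype ratios had a median of 0.29 over the 8 genes and 0.01 over all genes, and those of the HFD arrays 0.01 and 0.01. Shifting arrays to equal medians moved the median chow ratio of all genes to -0.09.

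Beside the 8 genes, 59 others of the cell death machinery were listed and 45 entered, while the remaining 14 were not analysed here. Of these 45, 1 rose and 0 fell with genotype in limma, and 3 rose and 0 fell with diet, beside 0.56%, 0.352%, 6.26% and 5.04% of all genes. An unadjusted p under 0.05 was reached by 5 of the 45 for genotype and 11 for diet, shares near the 10.4% and 23.8% of all genes. Mlkl, the pore-forming effector of necroptosis, had 6.99 in wild type on chow, 7.91 in LASS2-/- on chow, 7.59 in wild type on HFD and 9.06 in LASS2-/- on HFD. These arrays fell in the same order as for Casp12. Mlkl rose by 1.19 ± 0.24 with genotype (limma adjusted p = 0.0339) and by 0.88 ± 0.24 with diet (adjusted p = 0.0304), and both calls were lost with quantile normalization, equal medians, floored values, no filter and no trend. The genotype call was also lost with every probe set as its own feature, so it held in 5 of 11 alternatives and the diet call in 6.

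Of 6 other caspases that entered, 1 rose and 0 fell with diet, against 6.26% and 5.04% of all genes. For genotype 0 were called, against 0.913%. An unadjusted p under 0.05 was reached by 3 of the 6 for genotype and 5 for diet, against 10.4% and 23.8% of all genes. Casp6, an executioner caspase, had 9.86 in wild type on chow, 9.20 in LASS2-/- on chow, 10.49 in wild type on HFD and 9.997 in LASS2-/- on HFD. It rose with diet by 0.71 ± 0.13 (limma adjusted p = 0.00312), opposite to Casp8, and its genotype effect of -0.57 ± 0.13 was not called (adjusted p = 0.0757). Casp4 (caspase-11), next to Casp12 among the coding genes of chromosome 9, had 6.63, 6.96, 6.73 and 8.50 on the arrays in the same order. Its mean effects of 1.05 ± 0.37 for genotype (adjusted p = 0.284) and 0.82 ± 0.37 for diet (adjusted p = 0.188) were not called. Casp1, which matures interleukin-1 beta, was also highest in LASS2-/- on HFD, at 8.70 against 7.48 in wild type on chow, and was not called for either effect (adjusted p = 0.185 and 0.199). All 6 had a positive mean diet effect, with a median of 0.53 log2 beside 0.02 over all genes.

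Of 14 other Bcl2 family genes that entered, 1 rose and 0 fell with diet, against 6.26% and 5.04% of all genes. For genotype 0 were called, against 0.913%. An unadjusted p under 0.05 was reached by 1 of the 14 for genotype and 1 for diet, against 10.4% and 23.8% of all genes. Bad, a BH3-only gene, rose with diet by 0.79 ± 0.20 (limma adjusted p = 0.0171), from 8.57 to 9.03 in wild type and from 8.10 to 9.22 in LASS2-/-. The second kept probe set of Bad had the opposite sign, and the call was lost with the mean of probe sets. The median over the 14 genes was -0.06 for genotype and 0.04 for diet. Of 10 other genes of death receptor signalling, Mlkl was the 1 called, for both effects. Of all genes, 0.913% were called for genotype and 11.3% for diet. Among these 10, 1 had an unadjusted p under 0.05 for genotype and 4 for diet, against 10.4% and 23.8% of all genes. Tnfsf10, which encodes the death ligand TRAIL, had a mean diet effect of 0.85 ± 0.28 that was not called (adjusted p = 0.0648).

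**Figure D4:**
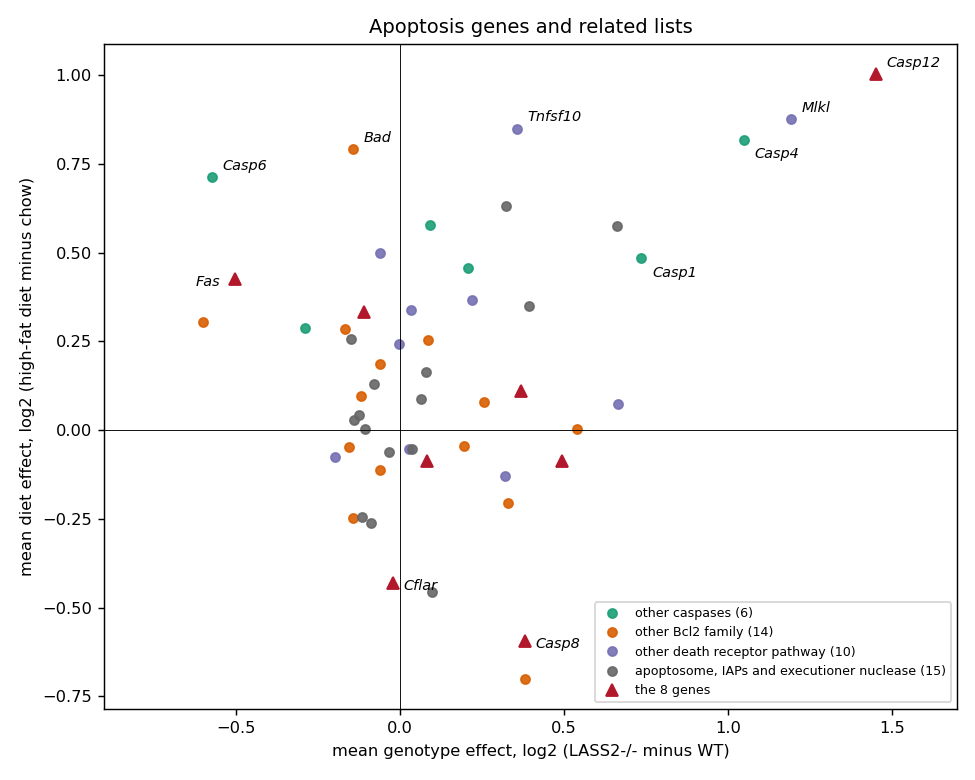
Mean genotype effect (x) against mean diet effect (y), both log2 from limma, for the 8 genes (triangles) and the 45 listed genes that entered (circles, coloured by list, with the number per list). Casp12, Mlkl, Casp4 and Casp1 lie in the upper right, and Casp8 and Cflar in the lower part.

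The genes with profiles closest to those of the leading members were found by the root mean square difference of log2 values after centring each gene on its mean over the 4 arrays. For Casp12 they were Hsf2bp (0.16), Zfp941 (0.16) and Rhbg (0.19), and 5 genes lay within 0.2. Zfp941 and Hsf2bp were under the array median on some arrays. For Casp8 they were Ttpal (0.02), Lmbr1l (0.03) and Rpl7l1 (0.04), and 723 genes lay within 0.2. With 4 arrays a close profile is easily met by a gene of small range.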

How the data were processed

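Total RNA of 4 male mouse livers or liver pools was hybridised to Affymetrix 3' arrays, 1 per group. The deposited values are log2 signals that, per the submitters' processing notes, the authors made with MAS5; the sources used here do not give its version or scaling target, and the number of arrays limits the precision. Probe sets were named from the platform annotation, with symbols updated through gene numbers (34945 of 45037 had a single symbol). Probe sets below the array median on every one of the 4 arrays were dropped and the brightest remaining one stood for its gene, which left 12493 genes. Ratios were floored at each array's median, and counts used a 2-fold threshold.

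Mean effects were fitted with limma 3.58.1 in R 4.3.3 by diet plus genotype (3 coefficients, trended moderation with 12.74 prior degrees of freedom), with Benjamini-Hochberg adjustment; the difference of the genotype ratio between diets is its error. The fit was tested on simulated data. Python 3.11.15, pandas 2.3.3, numpy 2.4.6 and matplotlib 3.10.9 were also used. The genes, lists and rules were chosen with earlier results of these data known. Named from the lists were members called by limma, and the neighbouring or related Casp4, Casp1 and Tnfsf10, the uncalled markers and the genes of the closing section were added after their values were seen, as were the neighbour order and the motifs. Alternatives are described in the closing section. P-values rest on the difference of the genotype ratio between diets as error, moderated mostly by genes of like signal. No group has replicate arrays, so the p-values do not measure the spread between arrays or animals of a group. Nothing says how many animals each array represents.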

Additional observations from a re-analysis of the deposited data

How the results depend on the processing

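No paired analysis was possible because each group has 1 array and the labels carry no replicate numbers; for the same reason no array could be left out with a residual remaining. The alternatives were quantile normalization, arrays shifted to equal medians, an offset of 32 on the linear scale, floor and filter at the 25th percentile, the mean of a gene's probe sets, probe sets ending in _x_at or _s_at left out, every probe set as its own feature, floored values in limma, no filter, no trend, robust moderation and, for ratios, a 1.5-fold threshold.

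Of the 8 genes, 1 rose with genotype; this became 0 with quantile normalization, equal medians, no filter and no trend, and 2 with the 25th percentile. With diet 1 rose, which became 0 with quantile normalization, equal medians, no filter and no trend; 2 fell, which became 1 with equal medians and with the mean of probe sets and 0 without trend. Ratio counts of the 8 genes moved with the 1.5-fold threshold alone, from 0 to 3 higher and 1 lower on chow, from 0 to 1 higher in wild type by diet, and from 0 to 1 lower in LASS2-/- by diet. With the mean of probe sets 4 uncalled effects changed sign: for genotype Bid became 0.17 and Cflar 0.16, and for diet Mcl1 became 0.044 and Bcl2l11 -0.076. In the called genes Casp8, Casp12 and Cflar the direction was the same in all 11 alternative fits. Only quantile normalization, equal medians, the offset and the mean of probe sets changed the values fitted for these genes. The other alternatives refitted the same values, so the direction in them was fixed in advance. For Casp8, with 1 probe set, the mean of probe sets also left the values as they were.

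Over all genes, 70 rose and 44 fell with genotype. The counts were 13 and 9 with quantile normalization, 11 and 11 with equal medians, 36 and 27 with the mean of probe sets, 36 and 17 by probe set, 33 and 19 with no filter and 0 and 0 with no trend (820 genes then had an unadjusted p under 0.05), and 41 rose with robust moderation. With diet 782 rose and 630 fell; 358 fell with equal medians, and 0 rose and 0 fell without trend. Genes 2-fold higher and lower by genotype on chow were 145 and 53, against 68 and 25 with the offset, 1156 and 633 with the 25th percentile and 710 and 419 at 1.5-fold; equal medians gave 95 lower. By genotype on HFD they were 184 and 61, against 108 and 27, 790 and 786, and 716 and 415. By diet in wild type they were 266 and 155, against 174 higher with the offset, 1008 and 850 with the 25th percentile and 963 and 638 at 1.5-fold. By diet in LASS2-/- they were 389 and 236, against 156 lower with the offset, 961 and 1319 with the 25th percentile and 1267 and 900 at 1.5-fold. More and dimmer genes (16898) entered with the 25th percentile; the cause of the other changes was not tested. Probe sets under the array median have no usable level, which limits 5 of the 27.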

Other observations

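Of 15 genes of the apoptosome, its inhibitors and the executioner nuclease that entered, 0 were called for genotype or diet in limma. Over all genes 0.913% and 11.3% were called. At an unadjusted p under 0.05 were 0 and 1 of the 15, against 10.4% and 23.8% of all genes. The medians of the 15 were -0.03 and 0.04 log2. Apaf1, the scaffold of the apoptosome, had 6.60 in wild type on chow, 6.83 in LASS2-/- on chow, 7.14 in wild type on HFD and 7.56 in LASS2-/- on HFD. Its mean diet effect was 0.63 ± 0.34 (adjusted p = 0.287). Birc5 (survivin) was under the array median in wild type on chow, at 5.35, and had 6.59 to 6.73 on the other arrays. Naip5 had 6.67 in wild type on chow, 7.29 in LASS2-/- on chow, 7.20 in wild type on HFD and 6.65 in LASS2-/- on HFD. Naip2 was 1.72-fold higher in LASS2-/- than in wild type on HFD, and Dffb, the executioner nuclease, was 1.71-fold lower on HFD than on chow in wild type. These ratios have no test. Xiap, which binds and blocks caspases, ranged from 12.15 to 12.36, and Cycs, cytochrome c, from 14.68 to 14.77. Diablo, which relieves that block, ranged from 9.63 to 9.87. Endog, a mitochondrial nuclease, had the 1 unadjusted p under 0.05, for a diet effect of -0.25 ± 0.10 (adjusted p = 0.134).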
